A study of Mus musculus with 14 samples.

Results

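Ribosomes are built in the nucleolus, where RNA polymerase I copies the rRNA genes and a large set of assembly factors folds, modifies and cuts the transcript. The 36 genes described here encode such factors, and they were picked by name among the 36161 gene names on a mouse expression array. Each gene was read from the brightest of its probes, and all 36 were on the array. Ribosomal proteins were not among the 36 and are described separately.

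RNA was measured on 14 one-color arrays in 5 groups of the study, which set intestinal adenomas and a colon cancer line beside normal gut. Small intestine (3 arrays) and colon (3 arrays) were whole tissue of the strain C57BL/6J according to the labels. Macroscopic adenomas (3 arrays) and the tissue next to them (2 arrays) were whole tissue of APCmin/+ mice, which carry a germline mutation of the tumour suppressor Apc, and in the sample list of the study these 5 arrays belong to 1 animal. CT26 (3 arrays) is a mouse colon carcinoma line from ATCC, derived from another strain, BALB/c, and is a single line. The same sample list places 1 colon sample under an APCmin/+ mouse, against its label. The small intestine arrays came from 3 mice, but p-values for adenomas and adjacent tissue measure the spread between pieces of 1 animal, and for CT26 the labels do not say whether the arrays were separate cultures.

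Synthesis of rRNA sets the pace at which a cell can make protein, and the proliferating cells at the base of the intestinal crypt have large nucleoli, whereas those of differentiated villus cells are smaller. The early steps are carried out by polymerase I and by small nucleolar RNPs (snoRNPs), in which a guide RNA directs methylation (box C/D) or pseudouridylation (H/ACA) of the rRNA. Separate sets of proteins then assemble the small and the large subunit. The transcription factor Myc, a target of the Wnt pathway that Apc restrains, is known to drive many of these genes through the sequence CACGTG (the E-box).

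All 36 genes were well above background and below saturation on all 14 arrays. The share of probes that the scanner software marked as clearly above background was 46.8% to 58.2% per array, with the lowest on colon replicate 3. This colon array stood apart. Over probes detected on all 14 arrays it correlated at 0.9507 to 0.9687 with the small intestine arrays and at 0.9344 and 0.9384 with the other colon arrays, and its median level of 10 enterocyte markers was 6.41, against -2.66 and -1.57 on the other colon arrays. Its median level of 10 colonocyte markers was 3.53, against 4.85 and 5.04 on the other colon arrays and -1.60 to -1.33 in small intestine. Comparisons with colon are therefore given with and without this array, and the figures show all arrays. CT26 lacked defining markers of epithelium: Epcam and Cdh1 were not well above background on any of its arrays, 3 or 4 of 8 epithelial markers were, and their median level was -5.72 to -5.14, against 6.52 to 8.15 in the tissues.

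Of the 36 genes, 31 had a promoter in the RefSeq table of GRCm38.p6 (not Bop1, Fbl, Rrs1, Rrp12 and Npm1), a window from 250 bases before to 50 bases after the annotated start. The E-box CACGTG, which reads alike on both strands, was in 6 of these 31 (19.4%), in 18 of 94 further genes of the pathway (19.1%), in 3 of 29 ribosomal protein genes (10.3%) and in 2187 of all 27025 genes (8.09%). The 6 sites are shown because they are the stretches these promoters share, with the E-box in capitals and up to 10 bases on each side. They were read 5′ to 3′ on the strand of the gene. That of Nop2, a methyltransferase of the large subunit rRNA, began 60 bases before the start (shown from chr6:125131813-125131838, plus strand). The others began 2 to 40 bases after it, in Pes1 (chr11:3963967-3963992, plus), Wdr43 (chr17:71616222-71616247, plus), Tsr1 (chr11:74898094-74898119, plus), Utp20 (chr10:88826765-88826787, minus) and Mybbp1a (chr11:72441357-72441376, plus).
Nop2: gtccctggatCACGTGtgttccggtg
Pes1: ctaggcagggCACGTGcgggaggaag
Wdr43: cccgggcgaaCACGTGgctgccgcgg
Tsr1: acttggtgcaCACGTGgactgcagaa
Utp20: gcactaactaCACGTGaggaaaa
Mybbp1a: cttctgagccCACGTGtttg
The match is of letters alone, and no binding was measured here.

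Levels are given as log2 signal after subtraction of the array's 75th percentile, so that 0 is the signal at that percentile. They compare arrays for 1 probe and not genes with each other. The median level over the 36 genes was 0.55 to 1.28 on the small intestine arrays, 1.25 to 1.60 in colon, 1.33 to 1.55 in adjacent tissue, 1.92 to 2.16 in adenomas and 3.95 to 4.57 in CT26. Ranked by group mean, 27 of the 36 genes followed a single order, from small intestine through colon, adjacent tissue and adenoma to CT26. CT26 had the highest mean for all 36 genes, and adenoma came next for 34, the exceptions being Utp20, which was second highest in colon, and Rrp12, which was second highest in adjacent tissue. The single order held, without colon replicate 3, for 22 genes, and colon also came second for Polr1c, Tsr1 and Pes1. Neighbours in the middle of this order often did not differ beyond their spread, as the comparisons show. These are bulk tissues, in which fewer cells of a type and less RNA per cell cannot be told apart.

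**Figure D1:**
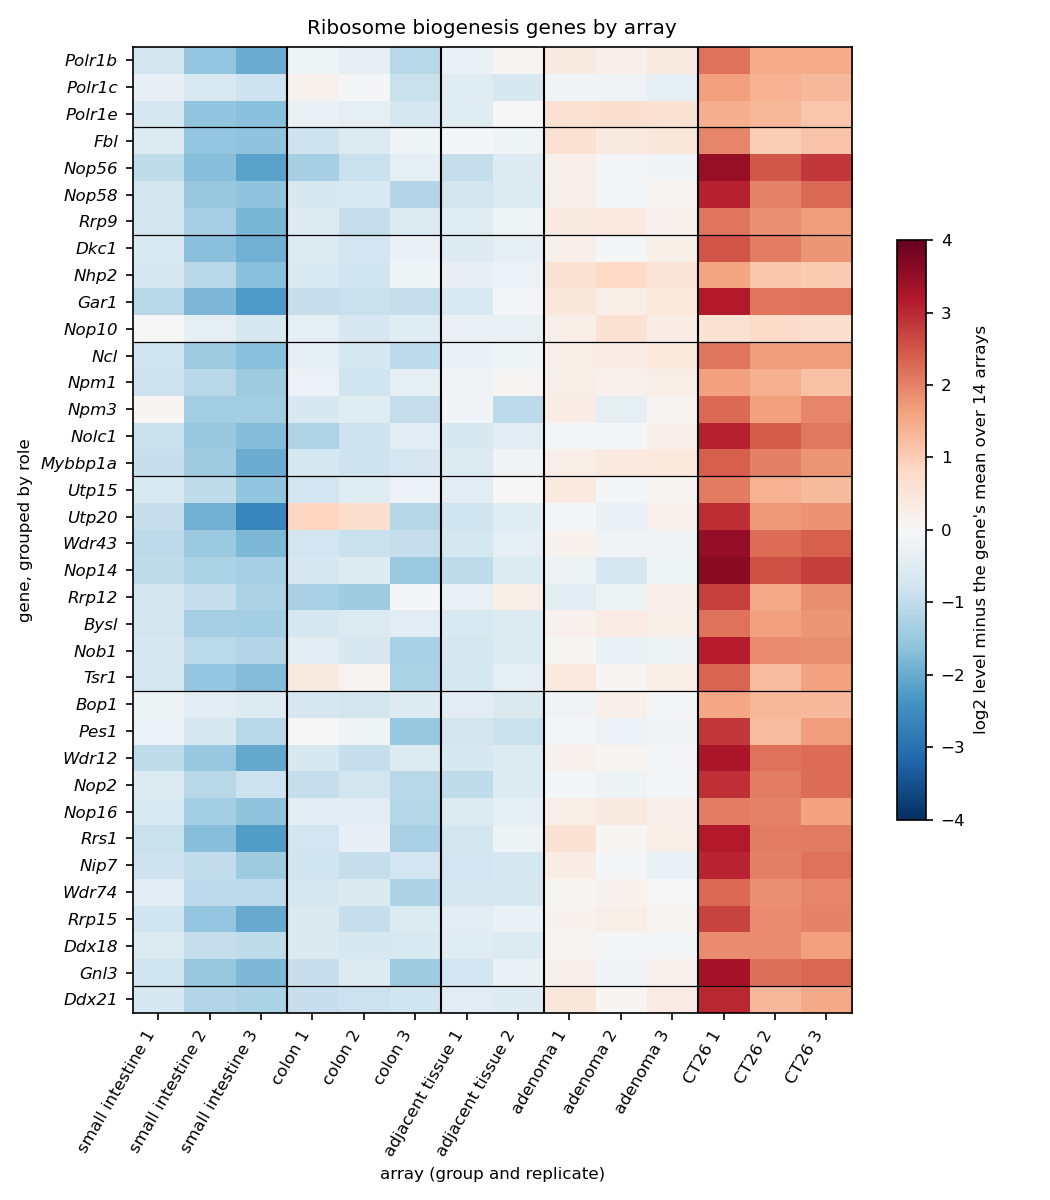
Level of each of the 36 genes (rows, grouped by role) on each of the 14 arrays (columns, grouped by tissue), as log2 level minus the mean of that gene over all arrays. The CT26 columns are the highest for nearly every gene, the adenoma columns come next, and small intestine replicates 2 and 3 are the lowest for most genes.

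Adenomas against healthy small intestine compare tumour tissue of the APCmin/+ animal with tissue of other mice. Tumour, Apc genotype and animal cannot be told apart in this comparison. All 36 genes had a higher mean in adenomas, with a median log2 difference of 1.40 (2.63-fold) and a range from 0.37 for Polr1c to 2.11 for Gar1. The median over all 22088 genes tested was -0.15. A gene was called where the log2 difference reached 1.2 (2.3-fold) at an adjusted p of at most 0.01 (limma, Benjamini-Hochberg adjustment over all 29532 probes tested). At these thresholds 22 of the 36 rose and 0 fell, against 11.3% of all genes called higher. Every adenoma array lay above every small intestine array for 33 of the 36 genes, against 27.8% of all genes; the groups overlapped for Polr1c, Npm3 and Pes1.

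Of the RNA polymerase I subunits, Polr1b, the second largest (probe at chr2:128951870-128951929, mm9, plus strand), read 0.15, -0.65 and -1.09 in small intestine and 1.26, 1.10 and 1.25 in adenomas. Polr1e, found in polymerase I alone, read -0.45, -1.34 and -1.43 in small intestine and 0.84, 0.86 and 0.80 in adenomas. The adenoma arrays lay close together for both genes and above all small intestine arrays. Polr1b rose by 1.73 ± 0.31 (SE, log2; adjusted p = 0.00391, limma) and Polr1e by 1.91 ± 0.28 (adjusted p = 0.00168). Polr1c, a subunit shared with RNA polymerase III, behaved otherwise: it read 3.12, 2.85 and 2.63 in small intestine and 3.34, 3.30 and 3.04 in adenomas, and its difference of 0.37 ± 0.19 did not pass (adjusted p = 0.143).

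All 4 genes of the box C/D snoRNP were called. Fibrillarin (Fbl), the methyltransferase of the particle, read 2.66, 1.67 and 1.59 in small intestine and 3.82, 3.57 and 3.68 in adenomas and rose 3.29-fold. Its core partner Nop56 (probe at chr2:130104989-130105049, plus strand) read 3.25, 2.56 and 2.10 against 4.47, 4.22 and 4.15 and rose 3.12-fold. No array overlapped for either gene. Nop58, the other core protein, rose 2.58-fold and Rrp9, which belongs to the U3 particle, 3.01-fold.

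In the H/ACA snoRNP 2 of 4 were called. Gar1 (probe at chr3:129527855-129527914, minus strand) read 3.16, 2.48 and 2.02 in small intestine and 4.73, 4.54 and 4.72 in adenomas. Among the brightest probes this was the largest difference of the 36 genes, 2.11 ± 0.29 (4.31-fold, adjusted p = 0.00141, limma). The other probes of Nop56 gave 2.20 and 1.62. Nhp2 rose 3.44-fold. Dkc1, the pseudouridine synthase itself, reached a similar size, 1.53 ± 0.35, but missed the threshold at an adjusted p of 0.0103, and Nop10 differed by 0.73 ± 0.21 (adjusted p = 0.0261).

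Among nucleolar chaperones and RNA binding proteins, nucleolin (Ncl), Npm1, Nolc1 and Mybbp1a rose by 1.34 to 1.82. Ncl, one of the most abundant nucleolar proteins, read 4.48, 3.84 and 3.61 in small intestine against 5.54, 5.57 and 5.69 in adenomas. Npm1 (nucleophosmin), a histone and ribosome chaperone, read 5.57, 5.29 and 4.98 against 6.64, 6.57 and 6.64. The groups were apart for both genes, and the adenoma arrays lay closer together than those of small intestine. Npm1 has processed copies elsewhere in the genome, and hybridisation of their transcripts to its probe was not tested. Npm3, a relative of Npm1, had the largest standard error of the 36 in this tissue pair, with -1.59, -3.04 and -3.04 in small intestine and -1.36, -2.04 and -1.56 in adenomas, and did not pass (0.91 ± 0.42, adjusted p = 0.108).

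Of 8 genes for assembly of the small subunit, 4 rose: Utp15 and Wdr43 of the processome that forms on the nascent transcript, Bysl, and the late factor Tsr1, by 1.21 to 1.55. Utp20, a large scaffold of the processome, differed by as much as 1.77 ± 0.41, with -0.97, -1.96 and -2.66 in small intestine and -0.09, -0.30 and 0.12 in adenomas, and its adjusted p of 0.0104 lay just outside the threshold. Nop14, Rrp12 and Nob1, the endonuclease that makes the final cut of the small rRNA, differed by 0.80 to 0.85 with adjusted p-values of 0.0108 to 0.0225.

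For the large subunit 5 of 11 rose, namely Wdr12, Nop16, Rrs1, Rrp15 and the nucleolar GTPase Gnl3 (nucleostemin), by 1.44 to 1.90. Rrs1, which brings in the 5S rRNA, read 0.59, -0.21 and -0.73 in small intestine and 2.06, 1.53 and 1.76 in adenomas. The PeBoW complex did not move evenly. Its member Wdr12 rose by 1.58 ± 0.27 (adjusted p = 0.00335, limma), while its partners Pes1 (0.53 ± 0.24, adjusted p = 0.102) and Bop1 (0.40 ± 0.18, adjusted p = 0.102) were among the smallest differences of the 36. Bop1 read 3.16, 2.91 and 2.84 in small intestine and 3.23, 3.58 and 3.28 in adenomas. Nop2, Ddx18, Wdr74 and Nip7 differed by 0.71 to 1.09 and were not called. The helicase Ddx21, which acts in transcription by polymerases I and II and in rRNA processing, rose by 1.34 ± 0.21.

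The small intestine arrays were not alike for these genes. Replicate 1 was the highest of the 3 for all 36 genes, whereas it was the highest for 33.8% of 19973 genes. Its median level of 10 proliferation markers (Mki67, Top2a and others) was 2.31, against 1.37 and 1.01 on the other small intestine arrays. Without this array 26 of the 36 were called, against 13% of all genes called higher, and the median difference was 1.65. The count fell to 6 without small intestine replicate 2 (8.35% of all genes called higher) and to 6 without adenoma replicate 1 (7.22%). It fell to 3 of the 36 without adenoma replicate 2 or 3, near the 6.57% and 7.1% of all genes called higher there. With each array left out in turn, the median difference stayed between 1.23 and 1.65 and all 36 differences stayed positive.

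Proliferation markers moved in the same direction: 8 of 10 rose in adenomas, with a median level of 1.01 to 2.31 on the small intestine arrays and 3.35 to 3.43 in adenomas. Of 10 enterocyte markers 6 fell, and their median level went from 6.59 to 9.20 in small intestine to 5.29 to 6.10 in adenomas. Of 8 smooth muscle markers 2 fell, and of 6 neutrophil markers tested 3 rose. The part of these cell types in the differences was not tested.

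**Figure D2:**
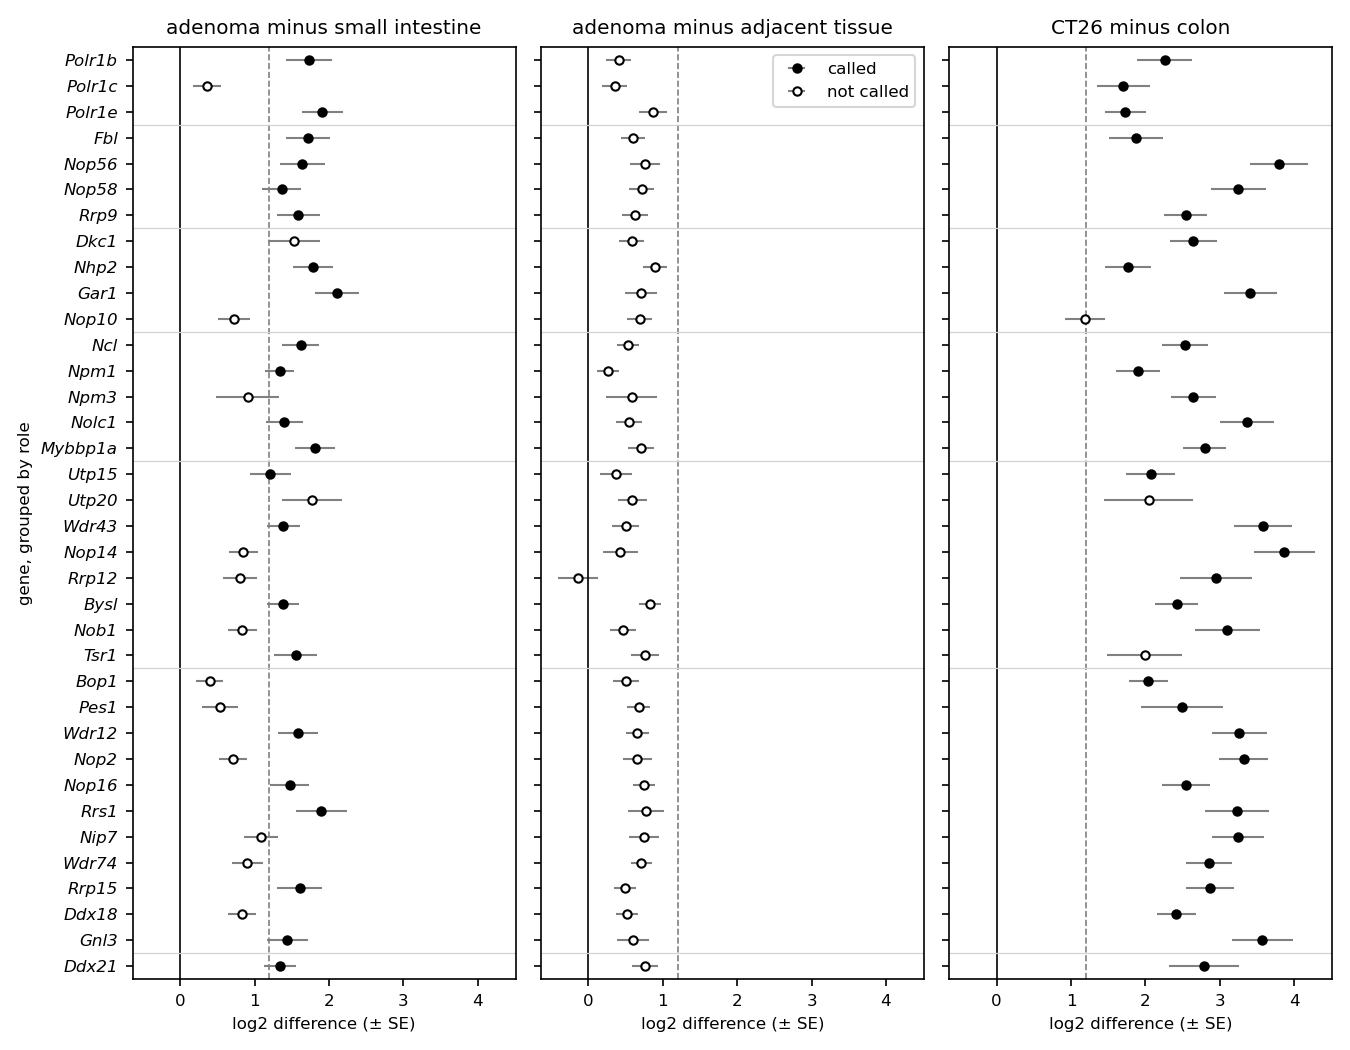
Log2 difference of each of the 36 genes (rows, grouped by role) in 3 comparisons, with its standard error from limma; filled points were called and open points were not, and the dashed line marks a log2 difference of 1.2. In adenomas against small intestine 22 points are filled, against adjacent tissue none, and in CT26 against colon 33.

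Adenomas against the tissue beside them, from the same animal, gave smaller differences. The mean was higher in adenomas for 35 of 36 genes, with a median difference of 0.61 (1.53-fold) against -0.04 over all 22192 genes tested. None of the 36 was called (limma), against 2.40% of all genes called higher, and all 36 differences were under the size threshold. At an adjusted p of at most 0.05 and no minimum size 13 passed, against 20.3% of all genes, and 29 had an unadjusted p under 0.05, against 38.3%. Every adenoma array lay above both adjacent arrays for 32 genes, against 28.4% of all genes.

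Nhp2 of the H/ACA particle showed the largest difference, with 5.24 and 5.33 in adjacent tissue against 6.13, 6.34 and 6.08 in adenomas (0.90 ± 0.16, adjusted p = 0.019, limma). Polr1e read -0.26 and 0.20 against 0.84, 0.86 and 0.80, a difference of 0.87 ± 0.19 (adjusted p = 0.0298). Bysl, an assembly factor of the small subunit, read 2.10 and 2.18 against 2.89, 3.04 and 2.97 (0.83 ± 0.15, adjusted p = 0.0188). In all 3 genes the groups were apart. Among the brightest probes Rrp12, a factor of small subunit maturation and export, was the exception to the direction. It read -0.41 and 0.13 in adjacent tissue and -0.58, -0.33 and 0.06 in adenomas. Its difference of -0.14 ± 0.26 took the other sign without adjacent replicate 2 or without adenoma replicate 1. The dimmer probe of Nolc1 also gave a negative difference (-0.199 ± 0.384), against 0.545 ± 0.174 with its brightest probe. Npm1 differed by 0.26 ± 0.15 (adjusted p = 0.25) with its brightest probe, and by 0.56, 0.57 and 0.44 with its other probes, none of them called. Of the proliferation markers 2 of 10 rose here, from a median level of 2.29 and 2.32 in adjacent tissue to 3.35 to 3.43 in adenomas. Enterocyte markers (1 of 10 fell) had a median difference of -1.47 and smooth muscle markers (0 of 8 called) of -1.51. The part of these cell types was not tested.

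Adjacent tissue against healthy small intestine compares tissue without a visible tumour, from the APCmin/+ animal, with tissue of other mice. Apc genotype and animal cannot be told apart here. The mean was higher in adjacent tissue for 34 of 36 genes, with a median difference of 0.85 against -0.10 over all 21632 genes tested. None was called (limma), against 0.00925% of all genes called higher, so that hardly any gene passed in this comparison of 2 arrays with 3. None reached an adjusted p of 0.05, and 15 had an unadjusted p under 0.05, against 30.6% of all genes in either direction. Both adjacent arrays lay above all small intestine arrays for 26 genes, against 21.9% of all genes. Gar1 read 3.68 and 4.24 in adjacent tissue against 3.16, 2.48 and 2.02 (1.40 ± 0.39, adjusted p = 0.0878), and Polr1b 0.64 and 0.95 against 0.15, -0.65 and -1.09 (1.32 ± 0.39, adjusted p = 0.0972). Npm1 had the smallest adjusted p, 0.0714, with 6.26 and 6.45 against 5.57, 5.29 and 4.98. At the other end, Pes1 (-0.14 ± 0.31) and Bop1 (-0.11 ± 0.21) were the only genes with a lower mean. Pes1 turned positive, at 0.08, without small intestine replicate 1, and Bop1 turned positive, at 0.19 and 0.22, in the authors' normalized table and after quantile normalization. In the other direction Polr1c, Nop10, Nop2 and Npm3 turned negative without 1 array or another, and 32 to 35 genes were positive over the alternatives. Cell type markers moved too, though none was called: the median difference was 0.90 for proliferation markers, 1.03 for neutrophil markers and -0.89 for enterocyte markers. Their part was not tested.

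Colon against small intestine compares gut regions labelled as C57BL/6J tissue. The mean was higher in colon for 33 of 36, with a median difference of 0.57 against -0.08 over all 20633 genes tested, and none was called (limma), against 0.00485% of all genes called higher. None reached an adjusted p of 0.05, and 4 had an unadjusted p under 0.05, against 23.9% of all genes in either direction. The colon arrays lay above all small intestine arrays for 7 genes, against 12% of all genes. Without colon replicate 3 the median was 0.58 and none was called, against 3.34% of all genes called higher, while 7 had an unadjusted p under 0.05. Both remaining colon arrays then lay above all small intestine arrays for 18 genes and below them for 2, against 26.6% of all genes above. At an adjusted p of 0.05, 2 genes passed, namely Utp20 and Tsr1. Utp20 read 0.82, 0.63 and -1.19 in colon against -0.97, -1.96 and -2.66 in small intestine, so that colon replicate 3 fell inside the small intestine range, and its difference went from 1.95 ± 0.66 (adjusted p = 0.153) to 2.59 ± 0.49 (adjusted p = 0.0167) without that array. Tsr1 read 1.94, 1.70 and 0.32 in colon against 0.89, 0.04 and -0.14, and its difference without that array was 1.55 ± 0.36 (adjusted p = 0.0289). Nop10, Nop2 and Bop1 had a lower mean in colon, and for Nop10 and Nop2 the sign turned in the authors' table and after quantile normalization. Rrp12, Npm3, Pes1 and Wdr74 turned negative in other settings, and 29 genes were positive without small intestine replicate 3.

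CT26 cells against colon gave the largest differences. All 36 genes were higher, with a median log2 difference of 2.65 (6.25-fold), a range of 1.19 to 3.87, and a median of 0.32 over all 21683 genes tested. Of the 36, 33 rose and 0 fell, against 21.0% of all genes called higher, and every CT26 array lay above every colon array for all 36, against 39.4% of all genes. Without colon replicate 3 the count was 32, against 20.1% of all genes, the median was 2.63, and all 36 still did not overlap, against 44.4%.

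With all arrays and the brightest probes, the largest difference was that of Nop14, a processome factor of the small subunit (probe at chr5:34986699-34987391, mm9, minus strand). It read -0.51, -0.35 and -1.30 in colon and 3.79, 2.72 and 2.94 in CT26, a rise of 3.87 ± 0.41 (14.6-fold; adjusted p = 0.000193, limma). Nop56 read 2.93, 3.37 and 3.89 in colon and 7.73, 6.75 and 7.09 in CT26 and rose 13.9-fold, and Wdr43 and Gnl3 each rose 11.9-fold. These 4 genes come from 3 roles. Without colon replicate 3 the largest difference was that of Nop56 (4.04), and Nop14 differed by 3.58. Another probe of Wdr12 gave 4.11 with all arrays. By role the median difference was 1.73 for polymerase I, 2.21 for the H/ACA particle, 2.65 for chaperones, 2.68 for the small subunit, 2.87 for the large subunit and 2.90 for the box C/D particle, and all 11 large subunit genes were called. Without colon replicate 3 these medians were 1.61, 2.36, 2.52, 2.67, 2.94 and 2.84 in the same order, and 10 large subunit genes were called.

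Within the box C/D particle the members parted. Fbl, at 2.39, 2.67 and 3.05 in colon and 5.16, 4.21 and 4.34 in CT26, rose by 1.87 ± 0.36. Its partner Nop56 rose by 3.80 ± 0.38, and by 2.98 and 3.75 with its other probes. In the H/ACA particle Gar1 rose by 3.41 ± 0.35 and Nhp2 by 1.77 ± 0.31. Nop10, the smallest subunit, read 3.15, 2.86 and 3.05 in colon and 4.14, 4.30 and 4.18 in CT26, and its difference of 1.19 ± 0.26 fell just under the size threshold (adjusted p = 0.00692). The other genes not called were Utp20 (2.04 ± 0.60, adjusted p = 0.0233) and Tsr1 (1.99 ± 0.51, adjusted p = 0.0123), whose colon arrays were spread over more than a log2 unit. Without colon replicate 3 these differences were 1.41 ± 0.43 and 1.49 ± 0.38, and Pes1 also lost its call (2.02 ± 0.48, adjusted p = 0.0102). With all arrays, another probe of Nip7 (0.61 ± 0.33) and of Ncl (1.49 ± 0.60) was not called, while another probe of Tsr1 was called (2.07 ± 0.48).

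CT26 replicate 1 was the highest CT26 array for 34 of the 36 genes, and for 51.1% of 19059 genes. Without it 30 were called, against 14.8% of all genes called higher, and the median difference from colon was 2.46. Proliferation markers were again higher, 8 of 10 called, at 4.95 to 5.22 in CT26 against 2.20 to 2.48 in colon, and 9 of 10 without colon replicate 3. CT26 is a cultured line without stroma, muscle or blood cells, so that strain, cell type, culture and tumour stage cannot be told apart in this comparison.

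CT26 against adenomas shared its arrays with both comparisons above. Strain, cell type, culture, animal and tumour stage cannot be told apart in it. All 36 genes were higher in CT26, with a median difference of 1.96 (3.88-fold) against 0.34 over all 22820 genes tested, except that Nop10 turned to -0.23 in the authors' table and to -0.22 after quantile normalization. Of the 36, 30 rose, against 21.9% of all genes called higher, and no array overlapped for any of the 36, against 44.0% of all genes. All 8 small subunit genes and all 11 large subunit genes rose, as read from the brightest probes. Another probe was not called for Nip7 (0.16 ± 0.23), Ncl (0.39 ± 0.53) and Nolc1 (0.89 ± 0.19). In the other direction, the other probes of Npm1 (1.45, 1.70 and 1.93) and of Ddx21 (1.47) were called. The 6 genes not called were Nop10 (0.27 ± 0.19), Nhp2 (0.61 ± 0.22), Polr1e (0.69 ± 0.19), Fbl (0.88 ± 0.28), Npm1 (1.198 ± 0.20) and Ddx21 (1.65 ± 0.44). Nhp2 read 6.13, 6.34 and 6.08 in adenomas and 7.13, 6.67 and 6.59 in CT26, and Nop2 read 4.03, 3.88 and 4 in adenomas and 7.01, 6.12 and 6.32 in CT26. In the authors' table and after quantile normalization 21 of the 36 were called, with medians of 1.55 and 1.60. The shares of all genes called higher were 13.9% and 19.8% there.

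Whether a gene rose by different amounts in CT26 and in the adenoma was tested as the difference between CT26 minus colon and adenoma minus small intestine. These comparisons share no array. The strain of CT26, its culture, gut region, Apc genotype and animal enter this difference and cannot be told apart from tumour stage. The median of this difference was 1.34 over the 36 genes and 0.43 over all 23439 genes tested. It was called as larger in CT26 for 12 of the 36 and as smaller for none, against 15.5% of all genes called larger. The 12 were Nop56, Nop58, Nolc1, Wdr43, Nop14, Nob1 and, of the large subunit, Bop1, Nop2, Nip7, Wdr74, Ddx18 and Gnl3. Nop14 differed most, 0.85 in the adenoma and 3.87 in CT26, by 3.02 (95% interval 1.99 to 4.04; adjusted p = 0.000371, limma). Nop2 differed by 0.71 and 3.32, a gap of 2.61 (1.80 to 3.42), and Bop1 by 0.40 and 2.04, a gap of 1.65 (1.03 to 2.26).

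The 12 depend in part on the probe: with another probe of the gene the gap was not called for Nip7 (-0.40), Nolc1 (0.64), Wdr43 (1.39) and 1 of the other probes of Nop56 (0.78). In the other direction, the gap was called with another probe of Pes1 (2.39) and of Wdr12 (2.85), which are not among the 12. They depend on the arrays as well. Without small intestine replicate 1 the gap was called for 7 genes, against 13.4% of all genes called larger. Without adenoma replicate 2 it was again called for 7, against 11% of all genes. Without colon replicate 3 it was called for 11, against 18.5% of all genes.

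The gaps of the remaining genes, each read from its brightest probe, ran from near 0 up to 2.14. Polr1e rose by 1.91 in the adenoma and by 1.73 in CT26, a gap of -0.18 with an interval of -1.02 to 0.66. Nhp2 rose by 1.78 and 1.77 (-0.02, interval -0.92 to 0.89) and Fbl by 1.72 and 1.87 (0.15, interval -0.92 to 1.22). For Fbl the gap turned to -0.56 in the authors' table and to -0.50 after quantile normalization. After quantile normalization 6 of the 36 were called in place of 12, against 13.7% of all genes called larger. Genes of the same roles had larger gaps, 1.34 for Polr1c (adjusted p = 0.0181), 1.30 for Gar1 (adjusted p = 0.0419) and 1.12 for Dkc1 (adjusted p = 0.0807), and a difference between roles was not tested.

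**Figure D3:**
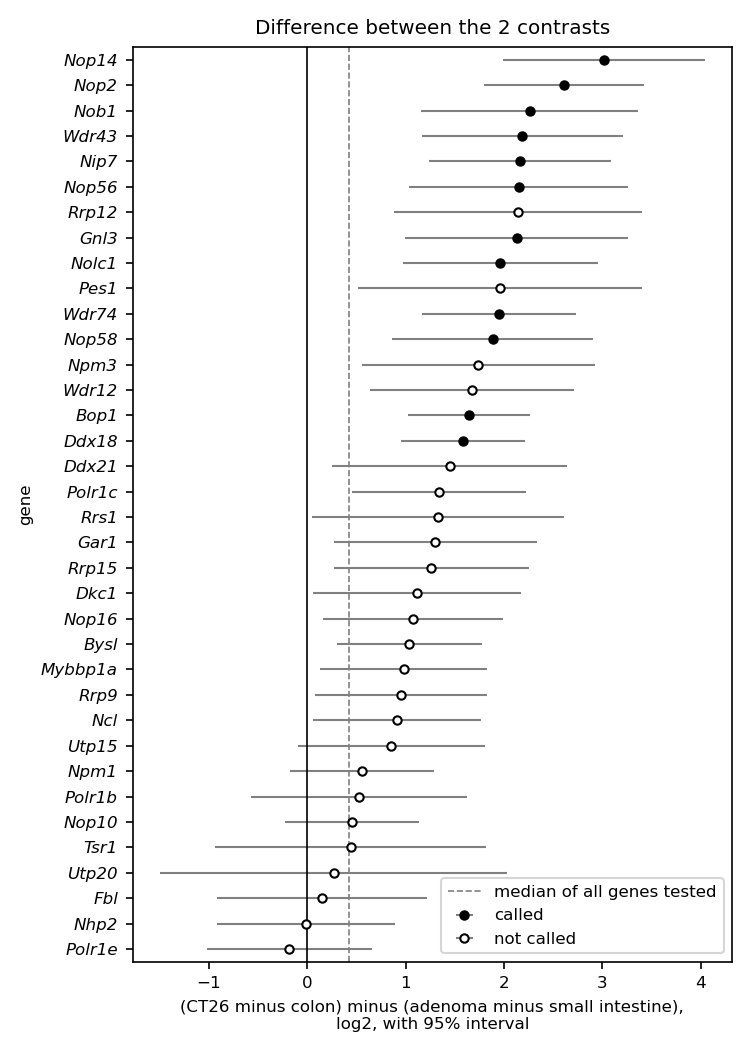
For each of the 36 genes (rows, sorted), the log2 difference of CT26 minus colon less that of adenoma minus small intestine, with its 95% interval from limma; filled points were called, and the dashed line is the median over all genes tested, 0.43. The 12 filled points run from Ddx18 at 1.58 to Nop14 at 3.02, and the intervals of Polr1e, Nhp2 and Fbl lie around 0.

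Of 110 further genes of the pathway that are on the array, 107 were tested in adenomas against small intestine. Of these 29 rose, against 11.3% of all genes, and 0 fell, and their median difference was 0.66: 4 of 11 polymerase I factors rose, 9 of 41 of the small subunit, 12 of 42 of the large subunit and 4 of 13 of the exosome, which trims and degrades rRNA. The 3 largest, among genes that both groups expressed above background throughout, were Rrp1b, Las1l and Polr1a. Rrp1b, of the large subunit, read -1.22, -2.12 and -2.33 in small intestine and 0.27, 0.00 and 0.21 in adenomas (4.14-fold). Las1l, an endonuclease of the internal spacer, rose 3.50-fold, and Polr1a, the catalytic subunit of polymerase I, rose 3.47-fold from 1.01, 0.40 and -0.01 to 2.30, 2.17 and 2.31. No array overlapped between the groups for these genes.

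In CT26 against colon 80 of 108 rose, against 21.0% of all genes, and 0 fell, with a median of 1.91. Without colon replicate 3 the count was again 80 and the median 1.90. The 3 largest by the same rule were Dimt1, a methyltransferase of the small subunit rRNA (13.5-fold), Exosc8 of the exosome (10.8-fold) and Mak16 of the large subunit (9.43-fold). In adenomas against adjacent tissue, adjacent tissue against small intestine and colon against small intestine none of the pathway genes was called (limma). An unadjusted p under 0.05 was reached by 38 of 107, 32 of 107 and 15 of 105, against 38.3%, 30.6% and 23.9% of all genes in either direction.

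The ribosomal proteins moved little. Of 39, 0 rose and 0 fell in adenomas against small intestine (limma), with a median difference of 0.37 and a higher mean for 37. An unadjusted p under 0.05 was reached by 10 of the 39, against 60% of all genes in either direction. In CT26 against colon 4 rose, against 21.0% of all genes: Rpl15, Rpl30, Rps2 and Rps19, by 1.27 to 1.62, with a median of 0.55 over the list. Rpl15 lost its call without colon replicate 3. Their probes were not saturated, but ribosomal protein genes have many processed copies that their probes may also bind.

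**Figure D4:**
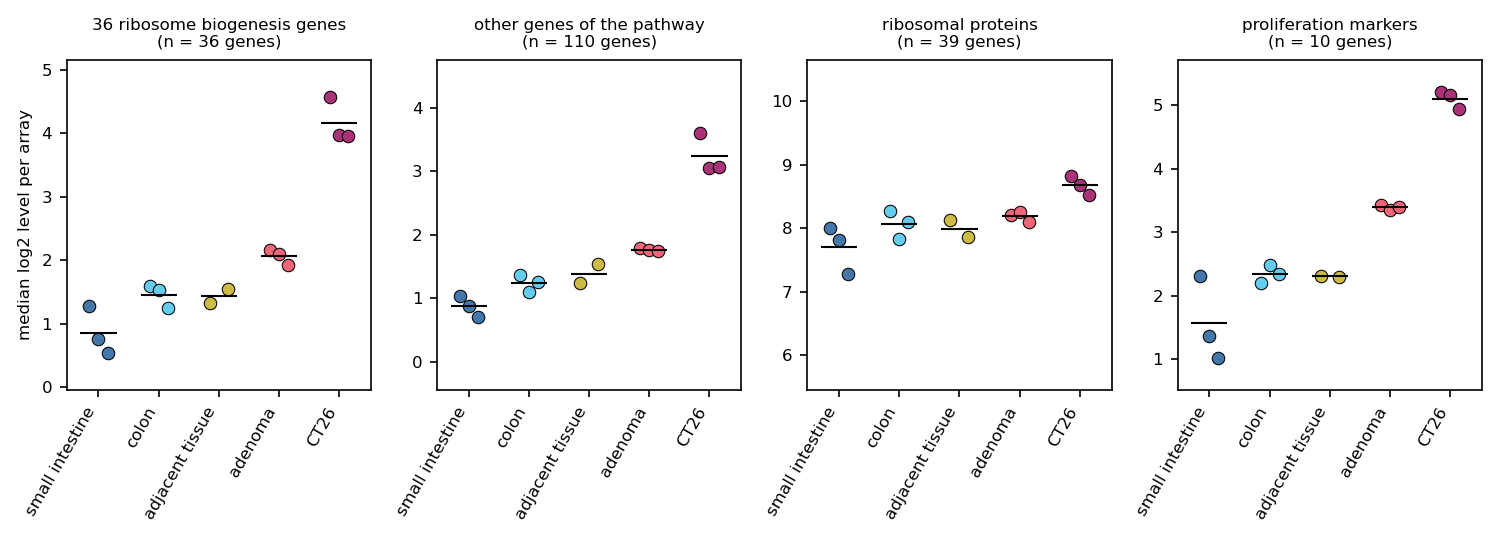
Median log2 level per array (points; lines are group means) of the 36 genes, the further genes of the pathway, the ribosomal proteins and the proliferation markers, in the 5 groups. The 36 genes step from at most 1.28 in small intestine to at least 1.92 in adenomas and 3.95 in CT26, and the ribosomal proteins span 7.28 to 8.83 over all arrays.

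Myc itself read -0.45, -0.93 and -1.60 in small intestine, 0.27 and 1.34 in adjacent tissue, 1.2, 0.85 and 1.14 in adenomas, 0.26, -0.02 and -0.99 in colon and 4.40, 2.48 and 3.32 in CT26. It rose by 2.05 ± 0.30 in adenomas against small intestine (adjusted p = 0.00176, limma) and by 3.65 ± 0.55 in CT26 against colon (adjusted p = 0.00113), or by 3.28 ± 0.54 without colon replicate 3 (adjusted p = 0.00193), but its difference between adenomas and adjacent tissue was 0.26 ± 0.34. Of the 9 genes of its network tested in adenomas against small intestine, Mycn and Mxd3 also rose, and its partner Max and the antagonist Mxd1 fell. Mxd1 read 5.26, 5.34 and 6.24 in small intestine, 3.1, 3.39 and 2.99 in adenomas, 4.33, 4.65 and 5.87 in colon and 1.10, -0.42 and -0.41 in CT26. Mycn was not well above background on any CT26 array.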

How the data were processed

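The authors hybridised Cy3-labelled RNA to one-color Agilent SurePrint G3 Mouse 8x60K arrays and deposited the scanner output of Feature Extraction 10.7.3.1 (processed signal, an intensity with background subtracted), annotated on mm9. They also deposited a normalized log2 table, used as an alternative, whose 28 further per-sample columns (flags and detection) and 21 columns of the authors' own comparisons (fold changes and p-values) were not used. The between-array method is not given in the sources used here.

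Control and outlier spots were left out (103 to 206 outlier spots per array), processed signals were put on the log2 scale, each array was centred on its own 75th percentile, and replicate spots were averaged. Each pair of groups was fitted with limma 3.58.1 in R 4.3.3 on its own arrays, over probes that all arrays of at least 1 of both groups detected well above background, with the thresholds of the study's methods. Shares over all genes use the brightest probe of each gene name. The fits were tested on simulated data. Signal over background and the number of arrays limit precision.

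All 36 genes are named, and of the pathway list the 3 called with the largest difference per comparison and direction among those detected and unsaturated on all arrays of both groups. The genes and lists were chosen with earlier results of these data known. Alternatives were the authors' table, normexp correction (offset 50), quantile normalization, other filters and thresholds, a fit of all 5 groups, slide and replicate blocks, the mean over a gene's probes, and leaving out each array. Other probes of a gene, and the further lists without colon replicate 3, were added after seeing the data.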

Additional observations from a re-analysis of the deposited data

Results flagged for a closer look

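For 12 genes the difference between CT26 and colon was larger than that between adenoma and small intestine in a test of the gap itself, which set them apart for a closer look. The gap on the log2 scale was 3.02 for Nop14, 2.61 for Nop2, 2.26 for Nob1, 2.19 for Wdr43, 2.16 for Nip7, 2.15 for Nop56, 2.13 for Gnl3, 1.96 for Nolc1, 1.95 for Wdr74, 1.89 for Nop58, 1.65 for Bop1 and 1.58 for Ddx18. The gap had a median of 0.43 over all genes tested, so that part of each value is shared with the whole array. The gap depended on the probe read for some of these genes: it was -0.40 for the dimmer probe of Nip7, 0.64 for that of Nolc1 and 1.39 for that of Wdr43, none of them called. For Nop56 the other probes gave 0.78, not called, and 2.13, and for Ddx18 the other probe gave 1.52. Outside the 12 genes, the gap was called with the dimmer probe of Pes1 (2.39) and of Wdr12 (2.85). The cause was not tested.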

How the results depend on the processing

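The direction of the 36 genes held under every alternative tried in adenomas against small intestine and in CT26 against colon, but the number called in adenomas against small intestine depended on the arrays and the filter. It was 22, and 8 with every probe tested, whatever its signal over background, against 5.2% of all genes called higher at that setting. Leaving out 1 array gave 3 (without adenoma replicate 2 or 3) to 26 (without small intestine replicate 1), while the share of all genes called higher ranged over 6.57% to 13%, against 11.3% with all arrays. The ranges without 1 array were 29 to 32 genes called in CT26 against colon and 27 to 31 in CT26 against adenoma. The shares of all genes called higher ranged over 11.4% to 20.1% in CT26 against colon and 18.3% to 22.1% in CT26 against adenoma. The gap between CT26 minus colon and adenoma minus small intestine was called for 7 to 13 genes without 1 array (main value 12). Over all genes 11% to 18.5% were called larger there, against 15.5% with all arrays. The gap was called for 7 genes without small intestine replicate 1 (13.4% of all genes) and for 7 without adenoma replicate 2 (11%). The median differences without 1 array ranged over 1.23 to 1.65 for adenoma minus small intestine, 0.52 to 0.70 for adenoma minus adjacent tissue, 0.62 to 1.10 for adjacent tissue minus small intestine, 0.36 to 0.80 for colon minus small intestine, 2.46 to 2.81 for CT26 minus colon and 1.77 to 2.04 for CT26 minus adenoma. With the authors' table the median was 2.22 in CT26 against colon and 1.55 in CT26 against adenoma, and with quantile normalization it was 1.60 in the latter. The gap was called for 6 genes after quantile normalization, against 13.7% of all genes called larger. It was called for 21 at an adjusted p of at most 0.05 with no minimum size, against 26.4%. At that setting 13 genes passed in adenomas against adjacent tissue, all of them higher, against 9.95% of all genes passing as higher. With another probe of the gene, an alternative chosen after seeing the data, the gap of Nip7 turned to -0.40. The cause of these shifts was not tested. Where an arm was left with 2 arrays or 1, limma's pooled spread was used.

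Same-numbered arrays did not deviate together: the correlations of their deviations ran from -0.126 to 0.291, so the replicate numbers were not taken to pair samples. With a replicate block 20 genes were called in adenomas against small intestine, 30 in CT26 against colon, 31 in CT26 against adenoma and 14 for the gap, and none in the other comparisons. The shares of all genes called higher were 10.1%, 14.4%, 22% and 13.8% in the same order. With the slide as a block the counts were 17, 30, 30 and 12, against 9.66%, 14.1%, 21.8% and 13.9% of all genes called higher. Within slide 1 and slide 2 the median difference was 1.39 and 1.43 in adenomas against small intestine, 0.72 and 0.48 against adjacent tissue, and 2.78 and 2.45 in CT26 against colon.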
